A study of Mus musculus with 7 samples.

Results

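The cytosolic ribosomal protein genes were taken as the 82 protein-coding rows, of 25322 in the deposited table, whose symbols are a plain Rpl or Rps name, together with Rplp0, Rplp1, Rplp2 and Rpsa. They comprised 50 genes of the large subunit and 32 of the small subunit. The rule left out S6 kinases, rows named as pseudogenes, and a few ribosomal proteins with other names (such as Fau and Rack1), and it took in Rpl7l1, which is better known as a ribosome assembly factor. Expression was measured by bulk RNA-seq of mouse skin cells sorted at day 36 for the reporter tdTomato. Zfp750, labelled ZNF750 in the genotypes, encodes a zinc-finger regulator of late keratinocyte differentiation. There were 3 control libraries, 2 given as ZNF750 wt/fl and 1 as wt/wt, and 4 knockout libraries (Zfp750_KO), all given as ZNF750 fl/fl. Every animal of either group carried an Lrig1-driven, tamoxifen-activated Cre (Lrig1-CreERT2 or Lrig1-CreER, +/-) and received 4-hydroxytamoxifen at 4 to 7 or 5 to 8 days of age, so Cre and drug were shared by controls and knockouts. Rosa26 was given as +/- for every library except 1 knockout, given as -/-. Lrig1 marks stem cells of the upper hair follicle, so the design limits the deletion to cells that expressed Lrig1 at that age and to their descendants. The controls are called here by the names of their columns, 4F, 4M, 7F, and the knockouts 1M, 2M, 3F, 6F. The letters M and F were read from these names as male and female for the sex term used below. The column names carry the group but no replicate number of the labels, so the wt/wt control and the Rosa26 -/- knockout could not be tied to a library. The labels do not state that the libraries came from separate animals, so p-values below measure the spread between libraries only.

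Each cytosolic ribosome holds one copy of nearly every ribosomal protein, so the genes are expressed in all cells and are usually regulated together. Their mRNAs start with a run of pyrimidines, the 5′ terminal oligopyrimidine tract, through which growth signals control their translation. The same short, strongly expressed mRNAs were copied back into the mouse genome many times, which left processed pseudogenes that can be almost letter for letter the coding sequence of the parent gene.

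The sequences show how alike a gene and its pseudogene can be. The coding parts of 4 genes are set beside their most similar strong copy, as windows of 60 bases from the GENCODE M21 transcripts (mouse assembly GRCm38). All are given 5′ to 3′ on the transcript strand, positions are counted from 1 at the first base of the coding sequence, and capitals mark the bases at which gene and copy differ. Rps6 lies on chromosome 4 and Rps6-ps4 on chromosome 2, and their 747 coding bases were identical, so the first window (bases 1 to 60) has no capital.
Rps6: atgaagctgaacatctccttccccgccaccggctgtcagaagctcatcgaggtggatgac
Rps6-ps4: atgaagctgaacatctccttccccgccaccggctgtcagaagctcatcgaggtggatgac

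Rpl23a on chromosome 11 and Rpl23a-ps3 on chromosome 14 differed at 1 of 468 coding bases, A116T, shown in bases 86 to 145.
Rpl23a: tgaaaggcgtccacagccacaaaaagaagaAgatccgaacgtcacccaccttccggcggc
Rpl23a-ps3: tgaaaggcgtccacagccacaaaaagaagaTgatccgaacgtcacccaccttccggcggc

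Rps7 on chromosome 12 and Rps7-ps3 on chromosome X differed at 3 of 582 coding bases (T26G, G48A and G123T), the first 2 of which fall in bases 1 to 60.
Rps7: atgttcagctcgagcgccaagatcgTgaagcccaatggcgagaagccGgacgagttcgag
Rps7-ps3: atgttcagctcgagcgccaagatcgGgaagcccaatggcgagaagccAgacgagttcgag

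Rps13 on chromosome 7 and Rps13-ps1 on chromosome 8 differed at 2 of 453 coding bases (T411C and A429G), both in bases 381 to 440.
Rps13: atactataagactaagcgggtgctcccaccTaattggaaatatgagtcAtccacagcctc
Rps13-ps1: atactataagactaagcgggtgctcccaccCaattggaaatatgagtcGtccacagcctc

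Such copies were the rule. Copies were sought only among the 2875 rows annotated or named as pseudogenes, so protein-coding retrocopies under other names were not searched. Of these, 446 carried a transcript that covered at least 80% of a member's coding sequence at 90% identity or more. These 446 rows are called copies of that member. They belonged to 72 of the 82 genes, with a median of 5.00 copies per gene and up to 34 for Rps2, and 22 of them were identical to the coding sequence over the aligned part. Of these rows, 441 were annotated as pseudogenes. The other 5 (Rpl10-ps3, Rpl9-ps6, Rps18-ps5, Rps18-ps6 and Rpl36a-ps1) are named as pseudogenes but given as protein coding, and were added after their values had been seen. No copy was found for 10 genes, among them Rpl3l, Rpl8, Rpl39l, Rpl41, Rplp2, Rps3, Rps19 and Rps27l.

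The table credited much of the signal to the copies. Averaged over the 7 libraries, the copies' summed value was above that of the gene row for 35 of 72 genes. For 9 genes (Rpl5, Rpl11, Rpl12, Rpl17, Rpl23a, Rpl27, Rps6, Rps7 and Rps23) the gene row held under 10% of the sum of gene and copies. Rps6, the small-subunit protein phosphorylated by S6 kinases, had a mean normalized value of 132, against 3343 for Rps6-ps4. Rpl23a, which sits at the exit of the peptide tunnel, had 10.9 against 720 for Rpl23a-ps3. Rpl5, which carries 5S rRNA into the large subunit together with Rpl11, had 358 against 3699 for its copy Gm15500. Each gene's protein-coding transcript with the longest coding part was also compared with its copies in 50-base windows. The share of a gene's transcript windows that also stood in a copy had a median of 54.4%, with a range of 7.19% to 92.1%. The gene row held a median of 33.2% of the sum in the 36 genes with the larger share of common windows and 69.0% in the other 36. These are descriptions over genes that share libraries. The rule by which the authors' counting treated reads that match several rows is not given in the sources used here, nor is its strand setting.

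**Figure D1:**
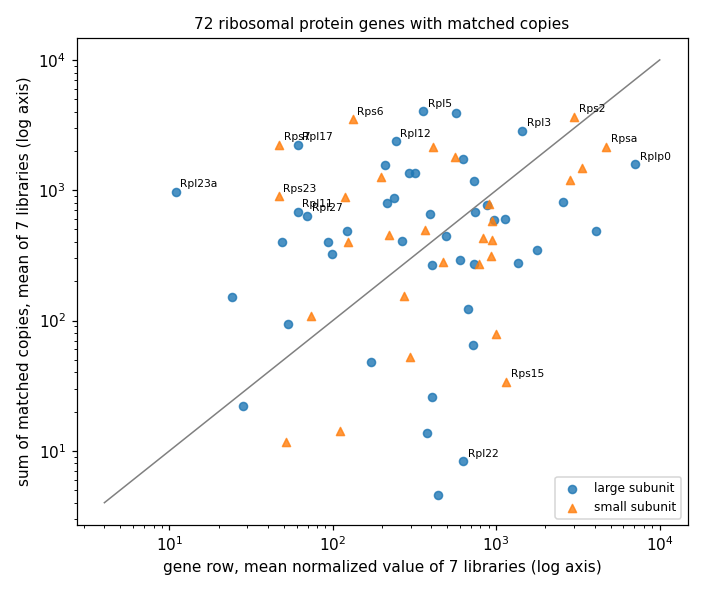
Mean normalized value of the gene row (x axis, log scale) against the summed mean value of its matched copies (y axis, log scale) for the 72 genes with copies, over 7 libraries, with large-subunit genes as circles and small-subunit genes as triangles. The grey line marks equal values, and 35 genes lie above it, with Rpl23a, Rps7 and Rpl17 farthest from it on that side.

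Genes with copies also differed in the form of their deposited values. Below 200 reads, 77.9% to 79.5% of all values in a library were whole multiples of the value of 1 read, within 0.02 reads, but only 8.00% to 22.2% of the ribosomal protein values were. In control 7F, 8 of 36 such values were whole, and in knockout 1M 2 of 25. Over the 7 libraries, 11 of 170 such values (6.47%) were whole in the genes with copies and 17 of 22 (77.3%) in the genes without. The level of a single gene with copies is treated as uncertain. Values of single genes below are for the gene row alone unless copies are named.

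Read totals recovered from the table were 9.09 to 17.1 M per library. The values of the targeted gene Zfp750 were 335, 51.2 and 61.9 in controls 4F, 4M and 7F and 48.9, 45.4, 10.1 and 29.6 in knockouts 1M, 2M, 3F and 6F. Only control 4F stood well above the knockouts, and the log2 difference was -1.47 with genotype alone (limma adjusted p = 0.891) and -1.38 with the macrophage score described below added to the fit (limma adjusted p = 0.0488). Transcripts of other cell types were prominent in the sorted cells. Col1a1, a fibroblast collagen, reached 5483 to 81016 per M (1e6) of the library total and was above Krt5, the basal keratinocyte keratin (67.5 to 1112 per M), in all 7 libraries. A macrophage score, the mean log2 value of 22 macrophage and monocyte genes, was 6.11, 10.05 and 10.24 in the controls and 7.36, 7.02, 11.00 and 10.70 in the knockouts. Control 4F and knockouts 1M and 2M thus had fewer macrophage transcripts than the other 4 libraries, a difference that crosses the genotypes. Among the knockouts it ran along the letters of the names, with M low and F high, whereas among the controls the low library was 4F. The part of sex in the score was not tested.

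Per kilobase of transcript and M of the library total, the levels of the gene rows spread widely. The length was that of the protein-coding transcript with the longest coding part, for example 3706 bases for Rps20 and 2045 for Rpl5. The levels and their spread therefore depend in part on this choice of transcript. Rplp0, the base of the acidic stalk that recruits elongation factors, was highest at 423, followed by Rps4x at 281 and Rps2, at the mRNA entry of the small subunit, at 255. Rpl7 (251), Rpsa (239) and Rps3a1 (239) came next. Rpl3l was lowest at 0.358. The quartiles of the 82 rows were 16.5 and 108, a ratio of 6.55. With the copies added they were 60.1 and 198, a ratio of 3.29. Of the 21 rows below the lower quartile, 5 stood above the median of 125 once copies were counted, and the others stayed below it. Rpl23a went from 1.63 to 142, Rps7 from 4.84 to 223 and Rpl17, which lines the peptide tunnel, from 6.26 to 243, whereas Rpl38 went from 6.83 to 12.2 and Rpl24 from 5.94 to 54.0. Rps2 (570) and Rplp0 (517) were then the highest. Rpl41, the smallest ribosomal protein and a gene without copies, stood at 231 on both counts, above the upper quartile.

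Together the 82 gene rows made up 0.709%, 0.403% and 0.442% of the library total in controls 4F, 4M and 7F, and 0.705%, 0.605%, 0.473% and 0.537% in knockouts 1M, 2M, 3F and 6F. Control 4F and knockout 1M were highest, knockout 2M came next, and the groups overlapped. The controls had a mean share of 0.518% ± 0.167 (SD, n = 3) and the knockouts one of 0.580% ± 0.0992 (SD, n = 4), a difference of 0.0620 percentage points that is smaller than either SD. The copies alone made up 0.680%, 0.346% and 0.387%, then 0.705%, 0.596%, 0.422% and 0.479%, in the same order of libraries. The 10 genes without copies gave the same 3 highest libraries, with 0.108%, 0.0566% and 0.0612% in the controls and 0.109%, 0.0927%, 0.0628% and 0.0808% in the knockouts. Adding gene rows and copies, the highest library held 1.88 times the share of the lowest.

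The 3 libraries with the highest ribosomal protein share were those with the 3 lowest macrophage scores. The 22 macrophage genes summed to 273, 696 and 593 per M in control 4F and knockouts 1M and 2M, against 4941 to 10982 in the other libraries. Ptprc, the pan-leukocyte marker CD45, stood at 4.46, 40.1 and 39.2 per M in those 3 libraries and at 474 to 1247 in the others. The sum of the 12 keratinocyte genes went the other way, with 3322, 3029 and 1256 per M against 353 to 873. Not every single gene followed the sum, and Cdh1 had a normalized value of 864 in 2M against 1154 in 3F and 1477 in 6F. The part of cell composition in the ribosomal protein levels was not tested. In bulk RNA, fewer cells of a type and less RNA per cell cannot be told apart.

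**Figure D2:**
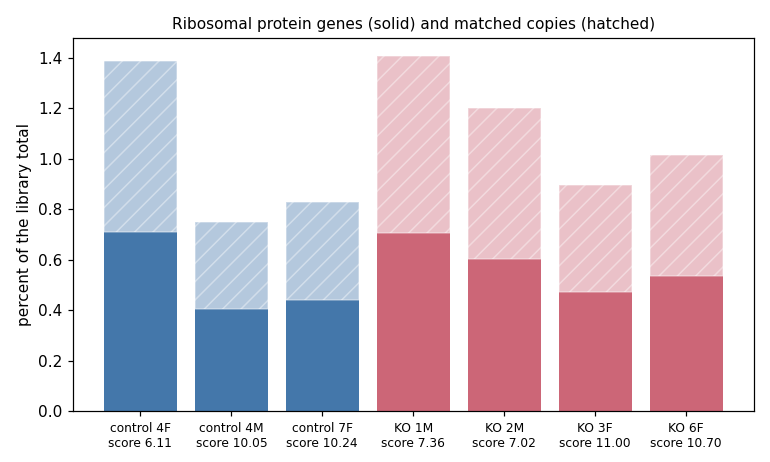
Percent of the library total (y axis, from 0) in the 82 gene rows (solid) and their matched copies (hatched) for each library, controls in blue and knockouts in red, with the macrophage score under each name. Control 4F, knockout 1M and knockout 2M reach 1.39%, 1.41% and 1.20%, and the other 4 libraries lie between 0.750% and 1.02%.

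Most single genes followed this order. Control 4F, 1M and 2M were the 3 highest libraries for 55 of 82 gene rows and for 73 genes once copies were added. The count was 71 with the 441 annotated pseudogenes alone and 63 with the 155 rows that carry a member's name with a -ps suffix. No gene lost the order when copies were added. On the log2(value + 11.9) scale, the median gene row (Rpl3l left out) lay 0.47, -0.41 and -0.41 from its own mean in the controls and 0.50, 0.29, -0.23 and -0.10 from it in the knockouts, while the median of all tested genes lay within 0.01 of 0. The SD over the 7 libraries had a median of 0.43 for the ribosomal protein genes, 0.50 with copies, 0.44 for all tested genes and 0.38 for the 6678 genes of similar level.

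**Figure D3:**
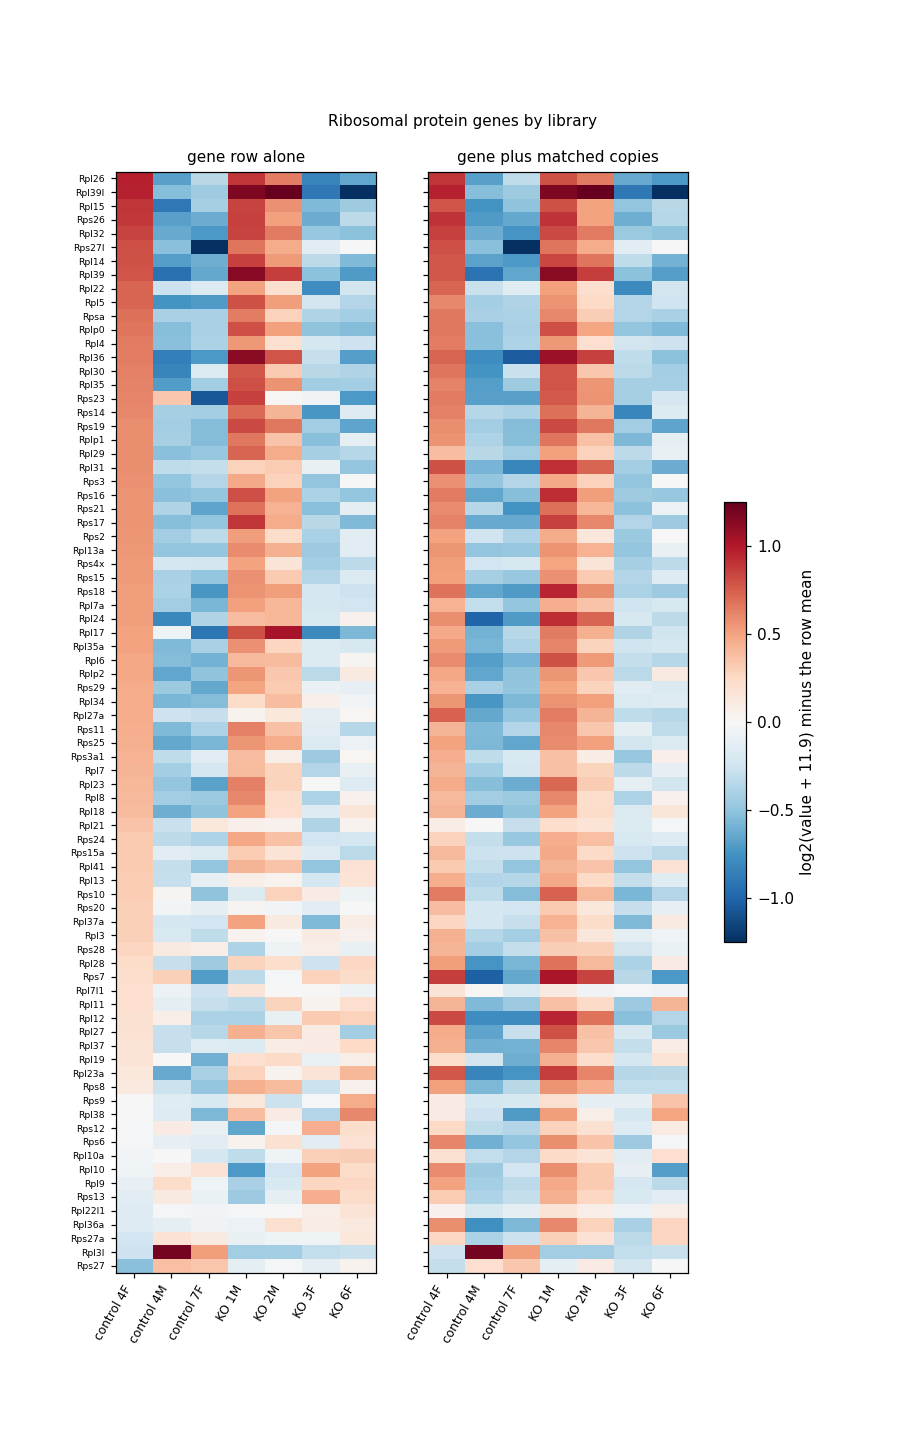
Ribosomal protein genes (rows, 80 of the 82) in the 7 libraries (columns), as log2(value + 11.9) minus the row mean, for the gene row alone (left) and with copies added (right), red above and blue below the mean. Rows are ordered by control 4F in the left panel. With copies added, control 4F and knockouts 1M and 2M are the 3 highest libraries for 71 of the genes shown, against 53 on the left.

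In 8 genes, chosen after their values were seen, the gene row and the copies ran in different orders. Rps13, of the small subunit, had gene-row values of 176, 211 and 182 in the controls and 138, 178, 271 and 229 in the knockouts, lowest in 1M and highest in 3F. Its copies had 1609, 880 and 977, then 1805, 1536, 979 and 1062, with 1M highest. Rpl10, which joins the large subunit last and closes its peptidyl site, had 528, 581 and 624, then 329, 463, 784 and 646, again lowest in 1M. Its 7 copies summed to 5844, 2511 and 2954, then 5996, 4845, 3157 and 1985. Nearly all of that was Rpl10-ps3, with a mean of 3715, a row given as protein coding and identical to the Rpl10 coding sequence. The gene row of Rps7 was 55.1, 58.6 and 23.5, then 33.9, 44.7, 58.2 and 55.2, beside copies of 3506, 898 and 1226, then 3955, 3476, 1475 and 1125. Rps12, Rpl9, Rpl10a, Rps28 and Rps27a showed the same contrast, with 1M lowest among the knockouts in the gene row and highest in the copies. The 8 genes are examples and not the full set. Rpl12 (177 in the 1M gene row, 4267 in its copies) and Rps10 (102 and 1473) also showed this contrast. In these genes the row that bears the gene's name and the sum over its copies order the libraries differently.

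**Figure D4:**
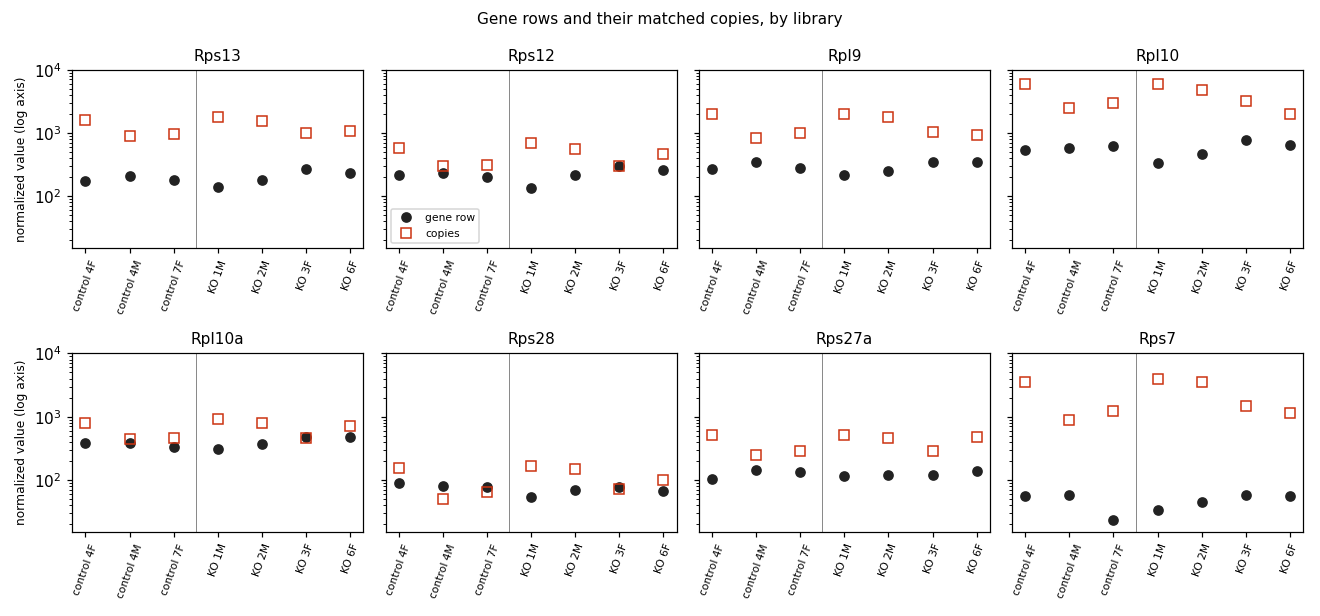
Normalized value (y axis, log scale, the same in each panel) of the gene row (filled circles) and of the summed copies (open squares) in the 7 libraries (x axis, controls left of the line) for 8 genes. Among the knockouts, 1M has the highest value of the copies and the lowest value of the gene row in each of the 8 panels.

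Rps27 was an exception with or without the copies as counted here. Its gene row was 31.8, 69.4 and 68.1 in the controls and 46.2, 49.7, 46.1 and 53.0 in the knockouts, lowest in control 4F. Rps27rt, a protein-coding retrogene of Rps27 that the rule does not take in, had 853, 192 and 258, then 944, 900, 323 and 244. It was itself highest in control 4F, 1M and 2M. Rps27rt was not among the rows searched for copies, so the place of Rps27 outside the order depends on that search. The other 8 genes out of order with copies added were Rpl3l, Rpl7l1, Rpl10a, Rpl11, Rpl22l1, Rpl38, Rps9 and Rps27a. Rpl38, a large-subunit protein tied to the translation of Hox mRNAs, had 26.9, 22.6 and 14.3, then 38.8, 29.5, 18.1 and 46.8, highest in 6F.

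Knockouts were then compared with controls over all 18141 tested genes, with the genotype as the only term. Of the ribosomal protein genes, 81 were tested (Rpl3l was too low) and 0 passed an adjusted p of 0.05, as did 0% of all genes. Without adjustment, 0 ribosomal protein genes had a p under 0.05, against 5.83% of all genes, and adjusted p-values ran from 0.929 to 1.000. Estimates ran from -0.26 to 0.59 with a median of 0.19 and a median standard error (SE) of 0.32, so single differences were mostly smaller than their error. Of the 81 estimates, 71 were above 0 (87.7%, against 53.3% of all genes, whose median was 0.02). The genes share their libraries and move together, so this is one observation rather than 71. The median was 0.24 for the large and 0.15 for the small subunit, and 0.23 for the tested genes without copies. It was 0.50 without control 4F, 0.33 without 3F, 0.28 without 6F, 0.12 without 2M, 0.09 without 1M, 0.08 without 4M and 0.03 without 7F, so its size rests on which library is in the fit. No tested ribosomal protein gene had groups that did not overlap, against 7.1% of all genes.

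The stalk proteins, which form the docking site of the elongation factors, illustrate the overlap. Rplp0 was 10390, 4527 and 4918 in the controls and 11424, 9306, 4600 and 4479 in the knockouts. Control 4F lay with 1M and 2M, and the other controls lay with 3F and 6F. The log2 difference was 0.16 ± 0.46 (SE). Rplp1 had 1918, 955 and 872, then 2021, 1641, 889 and 1182, a difference of 0.22 ± 0.38. Rplp2, a gene without copies, had 373, 163 and 182, then 391, 335, 206 and 284, a difference of 0.39 ± 0.34.

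Among other large-subunit genes, Rpl4, a protein of the peptide tunnel, was 6099, 2699 and 2955 in the controls and 5649, 4478, 3336 and 3247 in the knockouts (difference 0.16 ± 0.35). Rpl36 had 76.2, 19.5 and 22.5, then 112, 86.2, 34.6 and 23.2, one of the largest estimates at 0.55 ± 0.57. Rpl39, also of the tunnel, had 650, 190 and 234, then 834, 688, 258 and 223 (0.46 ± 0.60). Rpl23, which can bind Mdm2, had 519, 271 and 238, then 602, 469, 385 and 343 (0.43 ± 0.32). In each of these genes control 4F lay inside or above the range of the knockouts. Rpl22 stood at the lower end, with 996, 494 and 528, then 850, 686, 343 and 507 (-0.17 ± 0.37).

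In the small subunit, Rpsa, known also as the laminin receptor, was 7133, 3337 and 3336 in the controls and 6890, 5415, 3404 and 3305 in the knockouts (0.07 ± 0.39). Rps25, needed for initiation at some viral internal entry sites, was 614, 284 and 298, then 665, 622, 394 and 426. All 4 knockouts lay above controls 4M and 7F, and 4F lay just under 2M (0.45 ± 0.33). Rps28 had the lowest estimate, with 89.5, 78.9 and 76.9, then 52.7, 68.9, 77.5 and 67.0 (-0.26 ± 0.22). With its copies added the estimate was 0.17. Rps6 was nearly flat in its gene row, with 130, 122 and 118, then 136, 152, 118 and 151 (0.15 ± 0.20). That row held only 3.65% of the sum of gene and copies. The copies were not flat, with 5126, 2136 and 2338, then 5007, 4230, 2392 and 3244.

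With the macrophage score as a second term, the SEs were smaller and still 0 of 81 genes passed, against 3.7% of all genes (262 higher and 409 lower). Without adjustment, 16 genes had a p under 0.05, all with higher estimates in the knockouts. That is 19.8% of the 81, beside 17.4% of all genes in either direction and 8.37% with higher estimates. The median estimate was 0.22, with a range of -0.27 to 0.65, and 71 were above 0 (against 52.8% of all genes). Rps25 had the smallest adjusted p (0.49 ± 0.14, adjusted p = 0.104), followed by Rpl39 (0.55 ± 0.18, adjusted p = 0.141). Rps27l had the largest estimate (0.65 ± 0.28, adjusted p = 0.269).

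Some ways of fitting made calls. When libraries were weighted by how well they followed the model with genotype alone, 39 ribosomal protein genes were called higher and none lower, beside 10.4% of all genes called higher and 20.9% called in either direction. The weight of control 4F was then 0.33 and those of 3F and 6F were 0.26 and 0.31, against 1.63 to 3.99 for the others. This comparison thus leaned on controls 4M and 7F against knockouts 1M and 2M. Those controls had high macrophage scores (10.05 and 10.24) and those knockouts low ones (7.36 and 7.02), so genotype and score run together in it. With the macrophage score in the fit, weighting called Rps25 alone (adjusted p = 0.0474, beside 2.62% of all genes called higher), and the addition of copies called Rpl24 alone, also higher (adjusted p = 0.0453, beside 1.47%). Without control 4F that fit called 4 genes, Rpl6, Rpl18, Rpl34 and Rps25, all higher (smallest adjusted p = 0.0307, beside 3.44%).

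**Figure D5:**
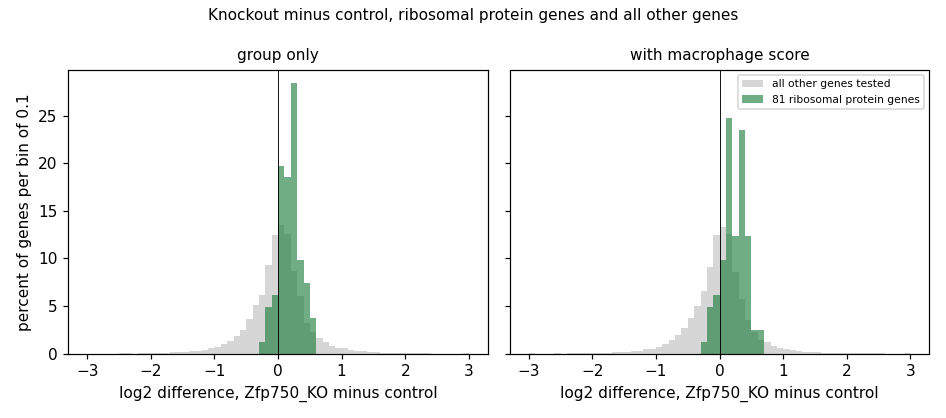
Distribution of the log2 difference, knockout minus control (x axis), for 81 ribosomal protein genes (green) and all other tested genes (grey), as the percent of genes per bin of 0.1 (y axis), with genotype alone (left) and with the macrophage score (right). The green bars centre on 0.19 and 0.22, right of the grey centre at 0.02, and 0 of the 81 genes passed the threshold in either fit.

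The balance of the subunits varied little. The summed large-subunit rows were 1.24, 1.17 and 1.22 times the small-subunit rows in the controls and 1.27, 1.31, 1.29 and 1.28 times in the knockouts, so every knockout lay above every control. This order did not hold in each way of summing. Without Rplp0 the ratios were 0.996, 0.970 and 0.999, then 0.995, 1.04, 1.08 and 1.09, with 1M among the controls. With the 155 rows named -ps added the ratios were 1.14, 1.11 and 1.16, then 1.15, 1.18, 1.23 and 1.17, with 1M under control 7F. With the 441 annotated pseudogenes added the groups stayed apart, at 1.24, 1.19 and 1.22, then 1.27, 1.29, 1.30 and 1.26. With all 446 copies added the ratios were 1.33, 1.26 and 1.30, then 1.36, 1.38, 1.39 and 1.31, with 6F under control 4F.

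Some members are paralogs that can take the place of a partner in particular tissues. Rpl3l, the form of Rpl3 in skeletal and heart muscle, was 1.55, 24.9 and 11.2 in the controls, listed at 0 in knockouts 1M and 2M, and 1.13 and 1.38 in 3F and 6F. This corresponds to about 34 reads in all, 29 of them in controls 4M and 7F, and the groups did not overlap, although control 4F and knockout 6F each rest on 2 reads. Muscle transcripts were high in the same libraries. Acta1, skeletal muscle actin, was 138, 3711 and 2316 in the controls and 56.1, 33.8, 313 and 163 in the knockouts. Ckm, muscle creatine kinase, was 52.2, 936 and 554, then 23.1, 21.3, 72.8 and 59.6. The part of muscle tissue in the Rpl3l values was not tested.

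Rpl39l, a form of Rpl39 best known from male germ cells, was 88.3, 23.6 and 25.9 in the controls and 104, 111, 15.8 and 6.20 in the knockouts, with 4F beside 1M and 2M. Rps27l, a p53-induced form of Rps27, had 149, 52.5 and 25.9, then 135, 115, 72.1 and 80.6. Rpl22l1, which can replace Rpl22, was nearly level, with 151, 168 and 166, then 168, 170, 181 and 194. The ratio of paralog to partner was tested for 4 pairs by two-sided exact permutation of the 7 libraries between the groups. The log2 difference of the ratio was -0.98 for Rpl3l to Rpl3 (exact permutation p = 0.286), -0.44 for Rpl39l to Rpl39 (exact p = 0.286), 0.70 for Rps27l to Rps27 (exact p = 0.343) and 0.30 for Rpl22l1 to Rpl22 (exact p = 0.571). Adjusted over the 4 exact tests, the p-values were 0.457 to 0.571. With 3 against 4 libraries, 1 tail of an exact test cannot fall under 0.0286, and the two-sided p used here has a higher floor. Even a p of 0.0286 would be 0.114 for a single ratio after adjustment, so no single ratio could pass adjustment. Each difference was smaller than the larger of its group SDs, which ran from 0.51 to 1.54.

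Other parts of the translation machinery were read from lists that were set with results of these data known. With genotype alone, 0 genes passed in any of them, as in the whole table. Of the 7 elongation factor genes the median log2 difference was 0.14. Eef1a1, which brings aminoacyl-tRNA to the ribosome, had a control mean of 28850 ± 11890 (SD, n = 3) and a knockout mean of 31569 ± 10215 (SD, n = 4). The 29 initiation factor genes had a median of 0.13, the 78 mitochondrial ribosomal protein genes 0.09, the 18 growth-control genes 0.06 and the 11 genes of p53 and nucleolar stress -0.03. The 7 ribosome-associated genes outside the naming rule had a median of 0.33, all above 0, and Rack1, a scaffold on the small subunit, was highest in the same 3 libraries (5295 in 4F, 5968 in 1M and 4961 in 2M, against 2886 to 3245). Of 48 ribosome biogenesis genes the median was 0.03. With the macrophage score, 1 of them was called: Nop58, a core protein of box C/D small nucleolar particles, was lower in knockouts (-0.76 ± 0.16, adjusted p = 0.0334), a share of calls no larger than the 3.7% of all genes. None of the other translation lists held a call in that fit.

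The start sites of the genes were searched for short sequence features. RefSeq promoters were matched for 62 of the 82 genes, which gave 74 start sites. In the 30 bases around the start (15 on each side, sense strand), CTCTTT or CTTTTC, which stand here for the pyrimidine tract and can overlap, occurred in 17.6% of the 74 windows and in 2.04% of 32851 windows of all genes. No member window held both, and most held neither. A match can also lie wholly before the start, as in Rpl4 and Rps15a below, where it would not be part of the mRNA from that start. The 6 windows below (RefSeq, GRCm38.p6) show the matched letters in capitals, 5′ to 3′ on the strand of the gene.
Rpl4, chr9:64173372-64173401, plus strand: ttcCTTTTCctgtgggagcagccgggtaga
Rpl18, chr7:45718056-45718085, plus strand: tgcgtctcgcaggccgCTCTTTccccgccc
Rps9, chr7:3704026-3704055, plus strand: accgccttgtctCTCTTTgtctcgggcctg
Rps26, chr10:128626492-128626521, minus strand: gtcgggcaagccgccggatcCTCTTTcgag
Rps15a, chr7:118116133-118116162, minus strand: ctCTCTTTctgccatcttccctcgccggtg
Rpl35a, chr16:33056467-33056496, plus strand: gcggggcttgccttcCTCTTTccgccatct

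In the whole 300-base promoters, searched on both strands, CCGGAA, the core of sites for ETS factors, stood in 48.6% of member windows and 14.9% of all windows. AAGATGG, the core of YY1 sites, stood in 16.2% and 6.34%, and GGGCGG, the core of Sp1 sites, in 59.5% and 35.7%. TATAAA, searched on the sense strand in the 50 bases before the start, stood in 1.35% and 2.63%. A match describes the letters only. Rpl4, Rpl18, Rps26, Rps15a and Rpl35a had control 4F and knockouts 1M and 2M as their 3 highest libraries and Rps9 did not (936, 836 and 817, then 1030, 771, 922 and 1292).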

How the data were processed

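Per the labels' protocols, libraries were prepared from RNA of sorted cells by an NEBNext Ultra II protocol. TopHat2 2.1.0 and Partek 9.0.20.0202 are named per the submitters' processing notes. Per the file headers and name, the authors normalized the read counts before deposit and deposited this signal as normalized counts for 25322 genes. How the counts were normalized is not stated there. Division of read counts by 1 factor per library was inferred here from the low values of the signal. Most of these, but not all, were whole multiples of the value of 1 read. The genome build is not given in the sources used here, nor are strand and multi-mapping settings. Since whole reads could not be recovered, count models were not used, and depth is approximate.

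Values were analysed as log2(value + 11.9), which understates differences of low genes. Genes that reached 1 per M of the column sum in 3 or more libraries were fitted with limma 3.58.1 (R 4.3.3, trended moderation, two-sided, Benjamini-Hochberg over 18141 genes), with genotype alone and with the macrophage score added (22 genes, mean log2 value). The fits were run on simulated counts in which genes varied independently. The simulation therefore does not cover shifts that genes share across libraries. Copies were matched with blastn 2.17.0, sense strand, to GENCODE M21 coding sequences by gene identifier. Columns were assigned to groups by their names.

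The members, gene lists, the score and the tests were chosen with earlier results of these data known. Genes to be named were the paralogs and their partners, the stalk proteins, Rpsa, Rps6, Rpl41 and Rps27a, the 6 highest and 6 lowest estimates, the 5 highest and 5 lowest levels, and any gene called or not tested. Other genes named were chosen after their values were seen. Alternatives were other scalings, pseudocounts, filters, robust moderation, array weights, a sex term, added copies and leaving out each library. A few genes enter the sums and counts but are not reported here by name.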

Additional observations from a re-analysis of the deposited data

Results flagged for a closer look

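Of the 82 genes, 2 had a knockout library far from the other knockouts by Dixon's test at the 95% level, fewer than the share of about 1 in 20 that chance flags. Rpl21 was 67.8 in knockout 3F, with the other 3 at 94.9 to 96.2, so the gap made up 0.952 of the range. Rpl28 was 173 in knockout 3F, with the others at 246 to 257, so the gap made up 0.872 of the range. Both genes have copies, and both joined the common order of libraries once the copies were added.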

How the results depend on the processing

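Whole reads could be recovered for only part of the values, so no counting error was given, and single genes with copies are uncertain. No paired analysis was possible because the columns carry no replicate numbers of the labels. With genotype alone, 0 genes were called under the alternatives run except array weights (39), and the median difference was 0.16 to 0.25 except with array weights (0.69) and 0.03 to 0.50 when 1 library was left out. With the macrophage score, calls were 1 with array weights, 1 with copies added, 0 to 4 when 1 library was left out (4 without control 4F), and 0 otherwise. The difference in summed share was 0.111 with rows named -ps, 0.141 with all copies, and 0.00455 (without 4M) to 0.158 (without 4F) when 1 library was left out. Leaving out 1 library, the log2 difference of the ratio ranged from -0.06 (without 4F) to 0.52 for Rpl22l1 to Rpl22, 0.09 (without 7F) to 1.57 (without 4F) for Rps27l to Rps27, -1.53 (without 4F) to -0.56 (without 4M) for Rpl3l to Rpl3 and -0.64 to -0.24 for Rpl39l to Rpl39, which was -0.69 without a pseudocount. The cause of these shifts was not tested. All these ratios but the last had 11.9 added to each value. For Rpl3l to Rpl3 no log2 difference exists without it, because the ratio is 0 in knockouts 1M and 2M.

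For the 31 tested genes of the naming rule, most values under an alternative kept direction and side of the threshold (1069), 11 newly passed and 76 changed sign, in genes that neither reported fit called. Where 2 values follow, the first is from genotype alone and the second from the fit with the score. Adding rows named -ps gave 0.06 and 0.11 for Rpl10, 0.26 and 0.29 for Rpl21, and 0.23 and 0.25 for Rps27a. Adding all copies gave 0.06 and 0.11 for Rpl10, 0.11 and 0.13 for Rpl21, 0.04 and 0.07 for Rps20, 0.24 and 0.26 for Rps27a, 0.17 and 0.20 for Rps28, and 0.00 for Rpl7l1 (genotype alone). Array weights gave 0.00 for Rpl21, 0.39 for Rpl22, 0.07 for Rps20 and 0.41 for Rps4x with genotype alone, and -0.11 for Rpl39l with the score. Rpl39l was -0.02 with upper-quartile scaling, -0.17 with a pseudocount of 1 and -0.18 with a sex term, and Rps23 was -0.06 with a sex term. Rps4x with the score was 0.00 with column-total scaling, 0.01 without the members in that total and 0.00 with a pseudocount of 1.

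Leaving out 1 library gave, with genotype alone, -0.31 to 0.10 for Rpl10, -0.30 to 0.02 for Rpl21, -0.37 to 0.14 for Rpl22, -0.40 to 0.52 for Rpl39l, -0.06 to 0.52 for Rpl4, -0.05 to 0.37 for Rpl7 and -0.04 to 0.19 for Rpl7l1. It gave -0.09 to 0.54 for Rplp0, -0.06 to 0.43 for Rps2, -0.16 to 0.05 for Rps20, -0.45 to 0.39 for Rps23, -0.41 to 0.03 for Rps27, -0.17 to 0.04 for Rps27a, -0.22 to 0.20 for Rps4x, -0.22 to 0.28 for Rps7 and -0.13 to 0.44 for Rpsa. With the score the ranges were -0.26 to 0.07 for Rpl10, -0.24 to 0.00 for Rpl21, -0.23 to 0.36 for Rpl39l, 0.00 to 0.16 for Rpl7l1, -0.12 to 0.02 for Rps20, -0.30 to 0.49 for Rps23, -0.13 to 0.01 for Rps27a, -0.10 to 0.08 for Rps4x and -0.29 to 0.36 for Rps7.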
